A study of Mus musculus with 4 samples.

Results

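The genes described here are the 8 mouse genes of the Fos and Jun families and Atf3 (Fos, Fosb, Fosl1, Fosl2, Jun, Junb, Jund and Atf3), found by their Ensembl identifiers among the 55414 genes of a count table. All 8 were present in the table, and all 8 passed the expression filter, which left 21592 genes. The table holds bulk messenger RNA sequencing of 4 mouse libraries. A pair of them came from Stra8 knockout (KO) animals and a pair from wild-type (WT) animals. Brain is the tissue given in the labels. The design text speaks, for both genotypes, of hippocampal cells sorted for green fluorescent protein driven by the Stra8 promoter. Both genotypes therefore carry the reporter. Neither source gives the age, the sex, the number of animals in a library, or the way the knockout was made, and the p-values below measure only the spread between these libraries, which may be technical. Stra8, the targeted gene, is known for starting meiosis in germ cells. It had 7 and 4 reads in the KO libraries, against 5 and 1 in the WT libraries, so its counts do not check the genotype labels.

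AP-1 is a transcription factor made of 2 proteins that grip each other through a leucine zipper and bind DNA through the basic stretch beside it. Jun proteins can pair with each other or with Fos proteins, while Fos proteins need a Jun partner. In neurons, synaptic activity switches on Fos, Fosb and Junb within minutes through the factors CREB and SRF, and Fos is widely used as a mark of recently active cells. Jun responds to the JNK kinases and to its own protein, and rises with Atf3 after axon injury. Jund is made more evenly, and Fosl1 is scarce in healthy brain.

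The promoter windows of these genes were searched for the letters of known regulatory motifs, some of which were found and others not. RefSeq sequences (GRCm38.p6) running from 250 bases before the start of transcription to 50 bases after it were available for 7 of the 8 genes. Windows of Jun, Fos and Junb are printed because Jun was the member that fell, Fos is the usual mark of activity and Junb is the relative of Jun that activity induces. The Jun window lies at chr4:95052173-95052472 on the minus strand, that of Fos at chr12:85473640-85473939 on the plus strand, and that of Junb at chr8:84978699-84978998 on the minus strand. Capitals mark the Jun-type site TGACATCA in Jun and the core of the cyclic AMP response element (CRE), TGACG, in Fos and Junb.
Jun: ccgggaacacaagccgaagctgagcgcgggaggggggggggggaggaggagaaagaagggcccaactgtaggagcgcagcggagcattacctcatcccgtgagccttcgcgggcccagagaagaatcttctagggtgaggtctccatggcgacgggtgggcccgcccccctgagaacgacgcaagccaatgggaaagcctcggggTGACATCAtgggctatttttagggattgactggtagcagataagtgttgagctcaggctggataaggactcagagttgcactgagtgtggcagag
Fos: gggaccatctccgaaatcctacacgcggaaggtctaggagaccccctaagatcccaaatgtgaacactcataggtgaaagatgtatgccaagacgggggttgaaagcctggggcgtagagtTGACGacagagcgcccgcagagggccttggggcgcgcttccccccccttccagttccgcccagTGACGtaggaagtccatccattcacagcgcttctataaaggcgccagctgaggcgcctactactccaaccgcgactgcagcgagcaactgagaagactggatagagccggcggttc
Junb: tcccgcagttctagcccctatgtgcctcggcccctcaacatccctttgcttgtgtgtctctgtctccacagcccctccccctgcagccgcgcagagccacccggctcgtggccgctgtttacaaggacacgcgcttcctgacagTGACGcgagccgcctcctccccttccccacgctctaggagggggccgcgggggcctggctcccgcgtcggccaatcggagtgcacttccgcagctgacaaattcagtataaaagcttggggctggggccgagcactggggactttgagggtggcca

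Both strands were searched in all 7 windows for the CRE (TGACGTCA), its core TGACG, the AP-1 site (TGANTCA), the Jun-type site (TGACATCA), the CArG box that SRF binds, the GC box (GGGCGG), the CCAAT box (CCAAT) and the TATA box (TATAAA). Every full CRE also holds its core, so those 2 searches overlap. Jun held the Jun-type site with its first base at position -45, a CCAAT box at -65 and a GC box at -89, counted from the start of transcription. That site was present in 3.62% of the 32851 promoter windows in the table. The CRE core lay at -129 and -66 in Fos, at -60 in Fosb, at -106 in Junb and at -7 in Atf3, and 20.8% of all windows held it. No match in the Fosl2 or Jund window was found for any of the first 5 of these motifs, and Jund held none of the 8. The Jund window rests on the RefSeq start alone. RefSeq gives this gene 2878 bases and GENCODE M21 1668, and whether their starts differ was not checked. Its window was 46.7% G and C, against a median of 52.7% over all windows. The CArG box was in none of the 7 windows and in 1.63% of all windows, the full CRE in none and in 1.79%, and the AP-1 site in none and in 7.81%. A match is only a run of letters, and a motif not found here may lie outside the window. The map of matches shows where these letters lie.

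**Figure D1:**
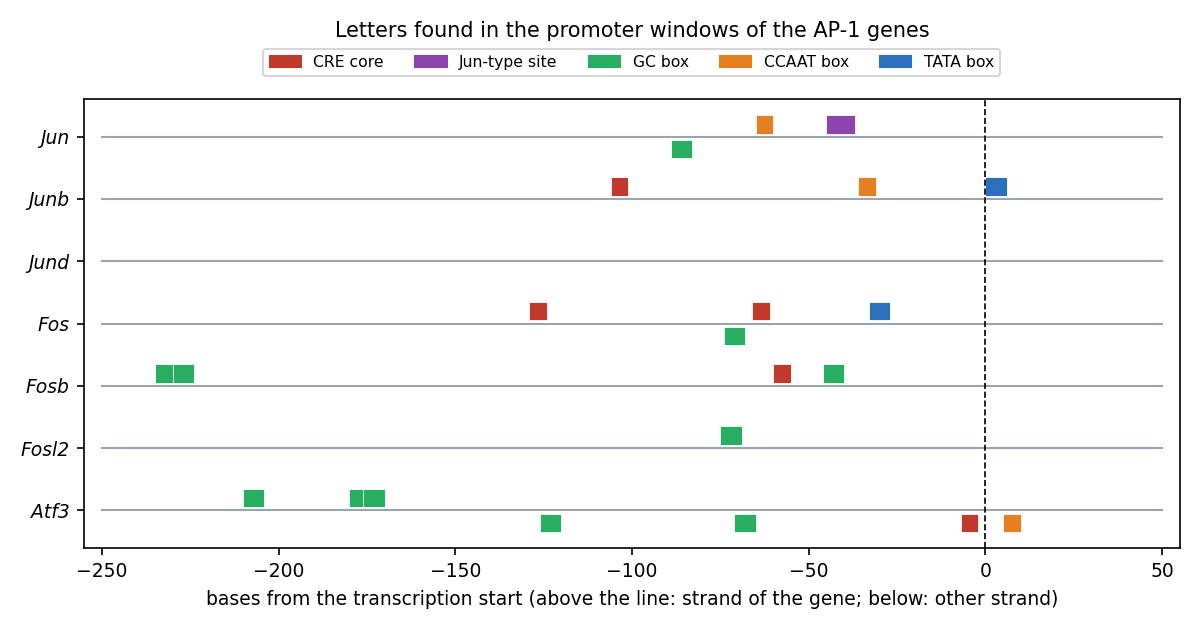
Matches in the promoter windows of 7 AP-1 genes, plotted by their distance in bases from the start of transcription (dashed line), above each line for the strand of the gene and below it for the other strand. The Jun-type site appears in Jun alone of the 7, and the CRE core in Fos, Fosb, Junb and Atf3.

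Jun fell in the KO libraries, and no other member passed the test in either direction. Jun, which encodes the strongest activator among the Jun proteins, had 69.6 and 70.5 CPM (counts scaled to the normalised size of the library) in the KO libraries, against 80.9 and 80.3 CPM in the WT libraries. Both KO libraries lay below both WT libraries, and libraries of the same genotype were within 1 CPM of each other. Jun averaged 70.1 ± 0.62 CPM in KO and 80.6 ± 0.40 CPM in WT (SD, n = 2 each). The log2 fold change was -0.20 (SE 0.028, 95% interval -0.26 to -0.14; quasi-likelihood test of edgeR, Benjamini-Hochberg adjusted p = 2.89e-05), a level 0.869 times that of WT. Of the 8 members 0 rose and 1 fell, where 3.35% of all genes tested were called higher and 3.19% lower (6.53% in all). At an unadjusted p under 0.05, which 17.4% of all genes reached, the counts were also 0 and 1, and DESeq2 and limma gave 0 and 1 as well. DESeq2 gave no adjusted p for Fosl1 and Atf3, so its counts leave these genes out. Among the 2208 genes with a mean level near that of Jun (within 0.5 on the log2 scale) 12.8% were called, and 98.5% had a smaller change than Jun. With a minimum change of 1.2-fold built into the test, Jun was not called (edgeR adjusted p = 1).

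Junb and Jund, the other members of the Jun family, did not pass. Junb, which activity induces and which often weakens the action of Jun, had 76.9 and 74.1 CPM in the KO libraries and 77.9 and 77.7 CPM in the WT libraries. The KO libraries lay just below the WT libraries, with a log2 fold change of -0.043 (SE 0.029, 95% interval -0.103 to 0.017; edgeR adjusted p = 0.511). Jund, the steadily made Jun protein, had 159 and 155 CPM in KO, against 155 and 160.1 CPM in WT. Its libraries overlapped, and the interval of its log2 fold change ran from -0.051 to 0.041 around -0.0051 (edgeR adjusted p = 0.951).

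The Fos family did not pass either. Fos itself had 39.6 and 38.6 CPM in the KO libraries, against 37.1 and 37.1 CPM in the WT libraries. Both KO libraries were above both WT libraries, but the log2 fold change of 0.076 (SE 0.040, 95% interval -0.0062 to 0.159) missed the threshold (edgeR adjusted p = 0.338). A rise of up to 1.12-fold lies within that interval. Libraries of the 2 genotypes also kept apart for Jun and Junb, which makes 3 of 8 members, and 45.7% of all genes tested did so. Fosb, whose short splice form builds up with repeated stimulation, had 29.8 and 30.9 CPM in KO and 30.3 and 32.04 CPM in WT. Those libraries overlapped, and the log2 fold change was -0.040 (edgeR adjusted p = 0.753, SE 0.047). The counts are per gene, so the splice forms of Fosb were not separated. Fosl2 had 61.2 and 63.8 CPM in KO and 62.5 and 63.7 CPM in WT, overlapping as well, and its log2 fold change was -0.015 (edgeR adjusted p = 0.890, SE 0.032).

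Fosl1 and Atf3 were rare, and a change of the size seen in Jun was not detectable in them at this depth. Fosl1, a Fos protein best known from growing and wounded cells, had 24 and 12 reads in the KO libraries, against 24 and 20 in the WT libraries. These are 0.293 and 0.169 CPM in KO and 0.298 and 0.244 CPM in WT, and the exact 95% binomial intervals of the lowest library (0.088 to 0.296 CPM, KO library 2) and the highest (0.191 to 0.443 CPM, WT library 1) overlapped. Atf3, the stress-induced partner of Jun, had 70 and 77 reads in KO and 82 and 98 reads in WT, or 0.855 and 1.09 CPM against 1.02 and 1.195 CPM. The KO and WT libraries of Atf3 overlapped. Atf3 changed by -0.19 on the log2 scale (edgeR adjusted p = 0.769, SE 0.24), with an interval from 0.622-fold to 1.23-fold. The value depended on single libraries, at -0.025 without KO library 1 and -0.37 without KO library 2. For Fosl1 the interval ran from 0.425-fold to 1.76-fold (edgeR adjusted p = 0.901). Those binomial intervals cover counting error only and are too narrow. Even values were 72.8% to 74.3% of all counts between 1 and 20, so a fragment appears to add 2 reads.

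**Figure D2:**
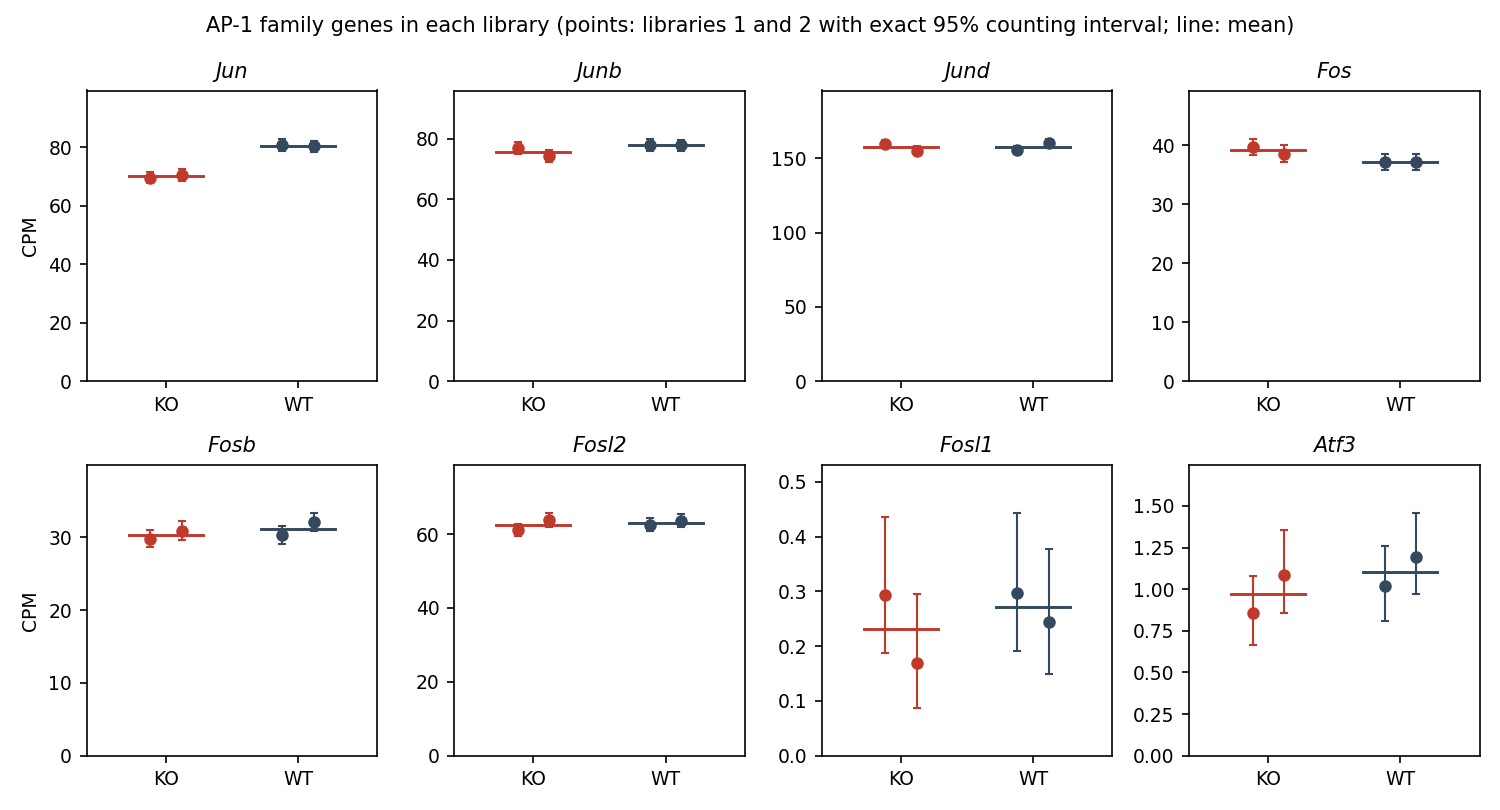
CPM of each AP-1 gene in the KO libraries (red) and WT libraries (dark), with 1 point per library, its exact 95% counting interval, and a line at the mean of the 2 libraries. Jun is lower in both KO libraries (69.6 and 70.5 CPM, against 80.9 and 80.3 CPM in WT), while Fosb, Fosl2, Jund, Fosl1 and Atf3 overlap between genotypes.

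**Figure D3:**
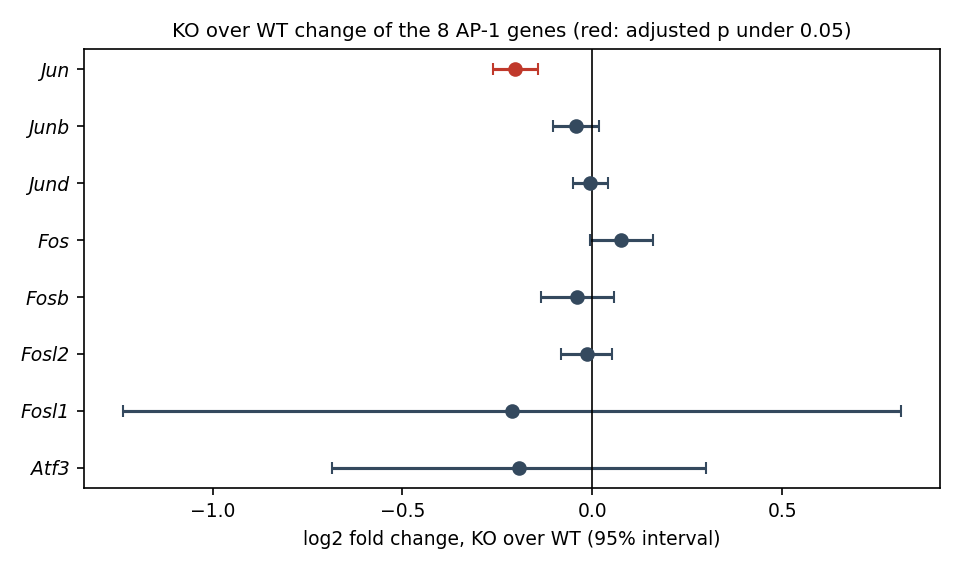
Log2 fold change of each AP-1 gene, KO over WT, with its 95% interval from the edgeR fit. Only the interval of Jun (-0.26 to -0.14) lies wholly on 1 side of 0, and those of Fosl1 and Atf3 are the widest of the 8.

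The order of the members by level was the same in every library. Levels between genes were compared as CPM per kilobase of annotated exon (GENCODE M21, lengths only). Jund stood highest, with 94.2 ± 1.78 CPM per kilobase in KO and 94.6 ± 1.98 in WT (SD, n = 2 each). Junb followed with 32.8 ± 0.83 in KO and 33.8 ± 0.059 in WT, and Jun with 21.97 ± 0.19 in KO and 25.3 ± 0.13 in WT. The next in the order were Fos (16.6 ± 0.32 in KO and 15.8 ± 0.015 in WT), Fosl2 (6.45 ± 0.19 and 6.52 ± 0.087) and Fosb (4.86 ± 0.13 and 4.99 ± 0.20). Atf3 had 0.451 ± 0.076 in KO and 0.513 ± 0.059 in WT, and Fosl1 0.114 ± 0.043 in KO and 0.133 ± 0.019 in WT. Each gap between neighbours in this order was larger than the SD of either gene. The annotated length of Jund differs between sources, 1668 bases in GENCODE M21 and 2878 bases in RefSeq, and with the longer form its level was 54.6 in KO and 54.8 in WT, which left it first. The 8 genes together took 437 and 434 CPM in the KO libraries and 445 and 452 CPM in the WT libraries.

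Set against other members of the family within the same library, Jun was lower in KO. The ratios with Jun reuse the counts behind its call, so they are not separate evidence of its fall. A ratio of the reads of 2 genes within a library does not depend on how libraries are scaled, and it is compared here only between libraries, since it mixes level with gene length. Jun had 1.76 and 1.83 reads per read of Fos in the KO libraries, against 2.18 and 2.16 in the WT libraries. This was a log2 difference of -0.28, and the 2 KO libraries differed from each other by 0.058 on the log2 scale, the 2 WT libraries by 0.012. Taken as the difference of the fold changes of Jun and Fos, the value was -0.28 with a 95% interval of -0.38 to -0.18. Against Junb, Jun had 0.906 and 0.951 reads per read in KO and 1.04 and 1.03 in WT (difference of fold changes -0.16, 95% interval -0.24 to -0.076). Against Jund the ratios were 0.437 and 0.455 in KO and 0.521 and 0.502 in WT (-0.20, 95% interval -0.27 to -0.12). The genotypes did not overlap in any of these 3 ratios, but that held for 8 of the 10 ratios computed, including 4 whose intervals contain 0. The intervals treat the estimates of the 2 genes as independent.

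In the other ratios between members no interval lay wholly on 1 side of 0. Fosb had 0.751 and 0.802 reads per read of Fos in KO, against 0.817 and 0.863 in WT, and the 95% interval of the difference of their fold changes (-0.24 to 0.011) included 0. So did those of Fosl2 against Fos (-0.20 to 0.015), Junb against Jund (-0.113 to 0.038), Fosl1 against Fos (-1.31 to 0.74, around -0.29, the furthest from 0 of the 10 ratios) and Atf3 against Jun (-0.49 to 0.51). Fos was lower in KO relative to Egr1, a zinc finger factor induced by the same signals, with 0.0835 and 0.0817 reads per read of Egr1 in KO and 0.0932 and 0.0939 in WT (difference of fold changes -0.18, 95% interval -0.27 to -0.091). Fos itself was not lower in KO, and Egr1 rose, as given below. Relative to Npas4, which responds to calcium entry, Fos had 1.39 and 1.29 reads per read in KO and 1.41 and 1.45 in WT, with an interval of -0.22 to 0.040. In all, 10 ratios were computed. A two-sided exact permutation test over the 4 libraries cannot give a p below 0.333, and 8 of the 10 ratios reached that value (0.417 after Benjamini-Hochberg adjustment over the 10).

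**Figure D4:**
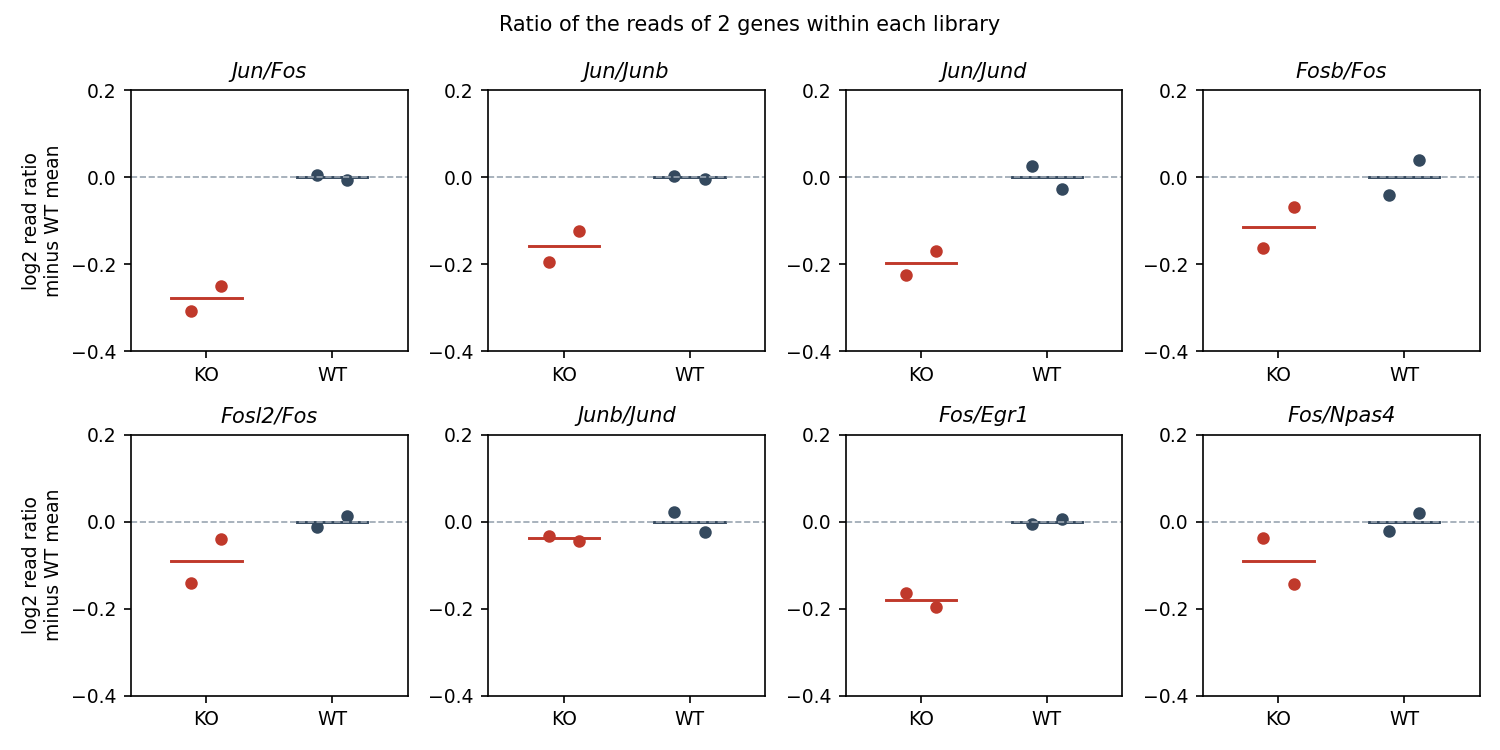
Log2 ratio of the reads of 2 genes within each library, less the mean of the WT libraries, for 8 of the 10 ratios, with KO libraries in red and WT libraries in dark and a line at each mean. The ratios of Jun to Fos, Junb and Jund lie below both WT libraries in both KO libraries, by 0.28, 0.16 and 0.20 on the log2 scale on average.

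Genes that overlap the AP-1 genes could share reads with them, since the library kit keeps strand but no source used here gives the strand setting of the counts. Junos, an antisense transcript that overlaps the exon of Jun, had 94 and 70 reads in KO and 101 and 91 in WT. That was 1.65% and 1.4% of the reads of Jun in KO and 1.55% and 1.38% in WT. Gm11175, antisense to Jund, had 3.31% and 3.45% of the reads of Jund in KO and 3.74% and 3.65% in WT. Ccdc85b overlaps exons of Fosl1 on the opposite strand and was far more abundant, with 7081 and 5909 reads in KO and 6994 and 6948 in WT. The few reads of Fosl1 are therefore uncertain. Prdx2 overlaps exons of Junb on the opposite strand and did not pass (log2 fold change 0.038, SE 0.025, edgeR adjusted p = 0.501). It had 144% and 151% of the reads of Junb in KO and 137% and 142% in WT. How far reads of Prdx2 enter the count of Junb was not tested.

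The fall of Jun stood beside shifts in marker genes of brain regions and other tissues. For reference, 3.35% of all genes tested were called higher and 3.19% lower. Cerebellar markers were lower, with 11 of 12 called and summed levels of 288.9 and 290.4 CPM in KO, against 481.9 and 489 CPM in WT. Dentate granule cell markers were lower for 7 of 10 by edgeR and 5 by DESeq2 (393 and 389 CPM in KO, 445 and 434 CPM in WT), and choroid plexus markers for 8 of 10 (832 and 819.8 CPM in KO, 1107 and 1101 CPM in WT). Of 10 pituitary markers 5 could be tested and 3 of these were lower, with sums of 29.7 and 29.4 CPM in KO and 62.1 and 62.2 CPM in WT. Striatal markers were higher for 11 of 12 (1248 and 1240 CPM in KO, 1047 and 1049 CPM in WT) and oligodendrocyte markers for 10 of 12 (11340 and 11360 CPM in KO, 10680 and 10760 CPM in WT). Astrocyte markers were lower for 4 of 10 (5647 and 5640 CPM in KO, 5766 and 5779 CPM in WT), and erythroid markers higher for 4 of 7 (237 and 229 CPM in KO, 188 and 202 CPM in WT). Glutamatergic neuron markers were called in both directions, 5 of 10 higher and 2 lower (8612 and 8634 CPM in KO, 8546 and 8597 CPM in WT), and GABAergic ones 1 of 10 higher and 2 lower (1329 and 1331 CPM in KO, 1337 and 1337 CPM in WT). Endothelial and mural markers were higher for 2 of 14 (477 and 486 CPM in KO, 478 and 471 CPM in WT). Microglial markers were called for 0 of 12 by edgeR, DESeq2 and limma (1 at an unadjusted p under 0.05), with sums of 366 and 363 CPM in KO and 359 and 360 CPM in WT. By DESeq2 the calls were 7 for choroid plexus, 10 for striatal and 3 for astrocyte markers, in the same directions as by edgeR. None of the marker genes was at 0 in all 4 libraries. Markers of cerebellum and pituitary in every library go beyond the hippocampal cells that the design describes. The part of these shifts in the level of Jun was not tested, and in bulk RNA fewer cells of a type and less RNA per cell cannot be told apart.

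Most of the proteins that can pair with AP-1 members or that belong to the same class of basic leucine zipper (bZIP) factors did not pass. Of 31 bZIP genes tested 0 rose and 1 fell (by DESeq2 and limma also 0 and 1; at an unadjusted p under 0.05, 1 and 8). Calls were 3.23% of these genes and 6.53% of all genes tested, most of which did not pass either. An unadjusted p under 0.05 was reached by 17.4% of all genes tested. Cebpd, a factor of the acute inflammatory response, fell to 7.05 ± 0.23 CPM in KO, against 11.2 ± 0.23 CPM in WT (log2 fold change -0.67, SE 0.081, edgeR adjusted p = 3.39e-06). The next smallest p values belonged to Cebpa (log2 fold change -0.23), Mafk (-0.18) and Maff (-0.40), with edgeR adjusted p from 0.123 to 0.156. The median over the list was -0.054, against -0.00038 over all genes tested.

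Of the kinase cascades upstream of Jun and Fos, 19% of the ERK list and 0% of the JNK list were called, beside 6.53% of all genes tested. The difference between the 2 lists was not tested. Shares called were larger at higher levels: 8.64% among genes near Fos in level, 12.8% near Jun and 22.5% near Jund. The gene lists described here were not matched for level, so their shares cannot be set against 6.53% alone. In the JNK cascade, which phosphorylates Jun, 0 of 20 genes passed by edgeR, and at an unadjusted p under 0.05 7 were higher and 1 lower. DESeq2 called 0, and limma called 1 higher. Mapk8, which encodes JNK1, had 100.8 ± 2.13 CPM in KO and 95.1 ± 2.10 CPM in WT, and its scaffold Mapk8ip1 had 467 ± 0.39 CPM in KO and 452 ± 1.80 CPM in WT (edgeR adjusted p = 0.0613 and 0.0567). In the ERK cascade, which carries receptor signals to SRF partners and CREB kinases, 1 of 21 genes rose and 3 fell (also 1 and 3 by DESeq2 and limma; 5 and 3 at an unadjusted p under 0.05). The scaffold gene Ksr1 fell to 84.1 CPM in KO, against 95.7 CPM in WT, and Rasgrf1, a calcium-sensitive activator of Ras, to 450.2 CPM in KO, against 473.6 CPM in WT. Rps6ka1, a kinase below ERK, fell by 0.26 on the log2 scale, and Hras rose by 0.108. Medians were 0.016 for the JNK list and 0.0035 for the ERK list.

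Of the dual-specificity phosphatases, which switch off these kinases, 3 of 11 rose and 1 fell, with a median log2 fold change of 0.154. Called genes made up 36.4% of the list, beside 6.53% of all genes tested. Dusp14 rose to 48.8 ± 2.00 CPM in KO, against 41.5 ± 0.18 CPM in WT. Dusp7 and Dusp6, which act on ERK, rose by 0.154 and 0.157 on the log2 scale. Dusp5, an ERK phosphatase of the nucleus, fell to 20.9 ± 0.53 CPM in KO, against 26.2 ± 1.22 CPM in WT (log2 fold change -0.32, SE 0.053, edgeR adjusted p = 0.000202). Among genes for the breakdown of AP-1 proteins 2 of 11 rose and 0 fell, with the same counts at an unadjusted p under 0.05 and by DESeq2 and limma. That was 18.2% of the list. Fbxw7, the ubiquitin ligase subunit that marks Jun for destruction, rose to 203 ± 1.16 CPM in KO, against 185 ± 1.89 CPM in WT (log2 fold change 0.136, SE 0.019, edgeR adjusted p = 3.10e-05). Trib2, an adaptor of the ligase Cop1, rose by 0.19, while Cul4a, a cullin scaffold of such ligases, had a log2 fold change of -0.063 and did not pass.

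Among the transcription factors that drive AP-1 genes, with their coactivators and kinases, 2 of 20 rose and 4 fell, with a median of -0.049. Calls made up 30% of this list and 6.53% of all genes tested. Mef2c, a calcium-dependent activator in neurons, rose to 393 ± 5.84 CPM in KO, against 329 ± 3.94 CPM in WT (log2 fold change 0.26, SE 0.017, edgeR adjusted p = 8.42e-11). Crtc1, a coactivator of CREB, fell to 212 ± 0.99 CPM in KO, against 233 ± 4.04 CPM in WT. The calcium-dependent kinase genes Camkk2 and Camkk1 moved in opposite directions, with log2 fold changes of 0.138 and -0.18.

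Activity genes outside the AP-1 family were called in both directions. Of 30 rapid genes, which are switched on without new protein, 8 rose and 3 fell (6 and 3 by DESeq2; 8 and 7 at an unadjusted p under 0.05), and the median log2 fold change was 0.026. Egr1 had 473 ± 1.85 CPM in KO and 396 ± 1.84 CPM in WT (log2 fold change 0.26, SE 0.015, edgeR adjusted p = 1.51e-11). Arc, a synaptic capsid-like protein, rose by 0.22, Egr3 by 0.20 and the nuclear receptor gene Nr4a1 by 0.19. Over the whole rapid list log2 fold changes ran from -0.58 to 0.28, so the largest change was a fall. Of 25 late activity genes, several of which act at synapses or are secreted, 8 rose and 2 fell (6 and 2 by DESeq2; 13 and 3 at an unadjusted p under 0.05), with a median of 0.085. By edgeR 36.7% of the rapid and 40% of the late list were called, beside 6.53% of all genes tested. Rgs4, a brake on G-protein signalling, rose to 385 ± 4.96 CPM in KO, against 299 ± 0.33 CPM in WT, a log2 fold change of 0.37 (edgeR adjusted p = 9.88e-14, SE 0.016). Homer1, a postsynaptic scaffold, rose by 0.26, the secreted peptide precursor Vgf by 0.16 and Nptx2, which clusters AMPA receptors, by 0.21. Log2 fold changes in the late list ran from -0.27 to 0.37. Striatal markers were higher in the same libraries, as given above. Their part in the rises of the activity genes was not tested.

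Genes known as AP-1 targets moved both ways. Of 29 tested, 5 rose and 4 fell, with a median of -0.038. The share called was 31%, beside 6.53% of all genes tested. The opioid peptide gene Penk, which is also among the striatal markers, had 243 ± 10.9 CPM in KO and 196 ± 1.39 CPM in WT (log2 fold change 0.31, SE 0.023). Gap43, a protein of growing axons, rose by 0.141. The metallothionein genes Mt2 and Mt1, which bind zinc, fell by 0.35 and 0.18, Mt2 to 62.7 ± 1.15 CPM in KO, against 79.8 ± 0.75 CPM in WT. The edgeR adjusted p of these 4 genes lay between 8.16e-10 and 1.17e-05. Mmp10 had no reads in any library.

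**Figure D5:**
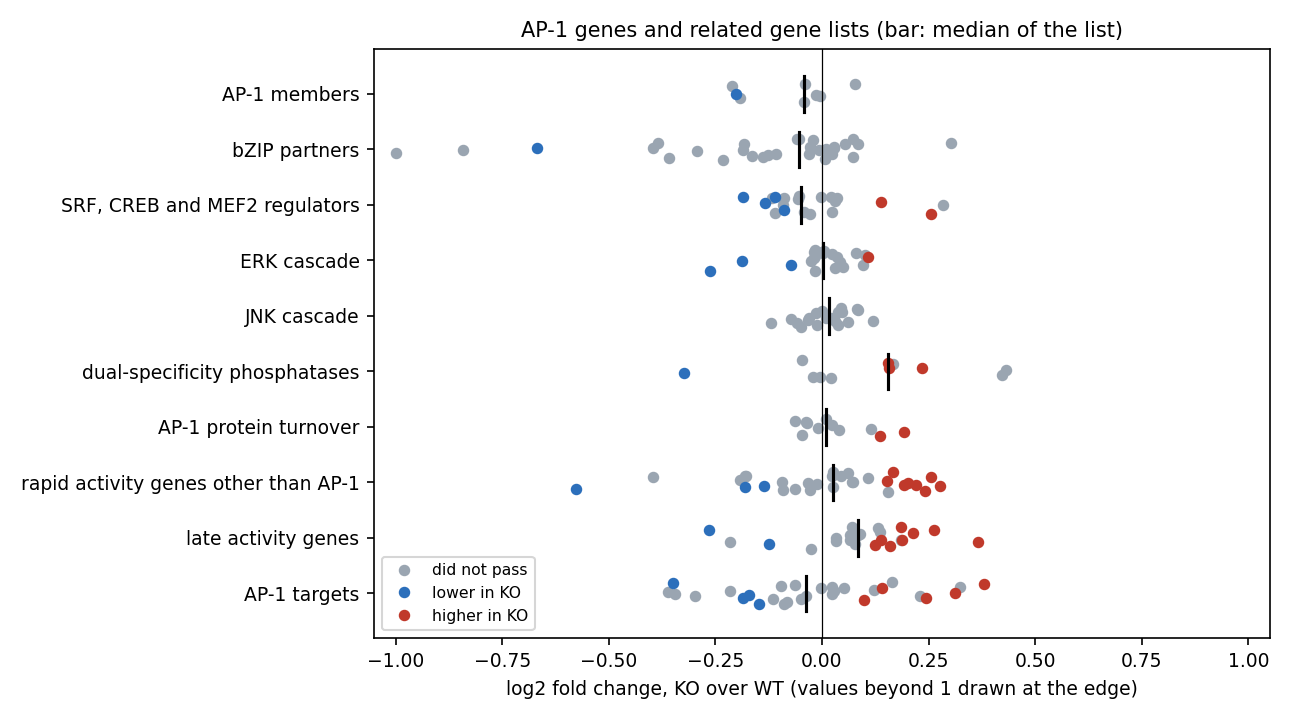
Log2 fold change, KO over WT, of each tested gene in the AP-1 family and 9 related lists, with genes called higher in red, called lower in blue, and the list median as a bar. In the AP-1 row only Jun is coloured (-0.20), and the rows of rapid and late activity genes hold 8 genes called higher each, beside 3 and 2 called lower.

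The genes whose levels followed Jun most closely over the 4 libraries were Cacna1h, Plekha2 and Galnt17. Likeness was the Euclidean distance of log2 CPM after centring each gene on its own mean, among 11464 genes of at least 5 CPM. The distances were 0.011, 0.013 and 0.013. Cacna1h, a low-voltage calcium channel gene, had 99.2 and 100.7 CPM in KO and 116.3 and 115.3 CPM in WT. Plekha2 had 22.1 and 22.3 CPM in KO and 25.3 and 25.4 CPM in WT, and Galnt17, a glycosyltransferase gene, 88.3 and 88.6 CPM in KO and 101.5 and 100.8 CPM in WT. Their log2 fold changes were -0.21, -0.19 and -0.19, beside -0.20 for Jun. This closeness follows from the way the genes were picked and is no separate result.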

How the data were processed

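Messenger RNA sequencing libraries were compared, 2 of Stra8 KO and 2 of WT mice. The authors deposited 1 table of raw read counts per gene. In its header both KO columns carry a suffix that neither WT column has. Neither labels nor header say what it marks, so it cannot be told apart from genotype. The submitters' processing notes name the GRCm39 build and FastQC, DESeq2, featureCounts and STAR 2.6.1c, with no role recorded. No source used here gives the annotation release, the strand setting or the handling of reads that map to several places. Library totals were 82172740 and 71097417 reads in KO and 80310856 and 81905583 reads in WT. Gene names came from a reference table that matched 52081 of 55414 identifiers. Promoter coordinates are GRCm38.p6, the build of that sequence table, not of the counts.

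The analysis used edgeR 4.0.16 in R 4.3.3, with filterByExpr (minimum count 10), TMM scaling (factors 0.997 to 1.01 over the libraries) and glmQLFit with glmQLFTest for genotype alone. A gene was called when its adjusted p (Benjamini-Hochberg, over all genes tested) was under 0.05. Fold changes are KO over WT. The SE was the log2 fold change divided by the square root of F, and 95% intervals used the t quantile of the fit. The interval of a difference between 2 genes was not part of the planned design. The procedure was tested on simulated data, where this edgeR fit called unchanged genes more often than its adjusted threshold allows, while DESeq2 and limma did not, so counts of edgeR calls may be too high. Over all genes edgeR called 723 higher and 688 lower, DESeq2 531 and 480, and limma 732 and 695. Alternatives included other scalings and filters, DESeq2 1.42.0, limma 3.58.1, an adjusted p threshold of 0.1, and each library left out. Their results are in the closing part.

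The 8 members and all gene lists were chosen with earlier results of these data known. All members are named, then some or all of the 4 genes with the smallest p in each list described, the 3 genes most like a called member, and overlapping genes. Microglial, astrocyte and other marker lists are given by their counts and sums. Mmp10 and Stra8 were named by choice, and a gene that the rule would name is not reported here.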

Additional observations from a re-analysis of the deposited data

How the results depend on the processing

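Jun kept its direction under all 16 alternatives (log2 fold change -0.21 to -0.19) and its call under 15, with edgeR, DESeq2 or limma adjusted p from 5.16e-09 to 8.21e-05. The exception was the minimum change of 1.2-fold, where Jun at -0.20 had an adjusted p of 1, so 0 members were lower, and over all genes 6 were higher and 59 lower. That setting asks for more than the size of the change of Jun. It reuses the main estimate, and so does a looser adjusted p threshold of 0.1, also among the 16. Neither could change the direction of Jun, and the looser threshold could not undo its call. No other member was called under any alternative, and Fosl1 had no value under the filter with a minimum count of 50. DESeq2 gave no adjusted p for Fosl1 and Atf3, so it could not call them. Leaving out 1 library, with a lone library then assumed to vary like the others, turned the sign of 4 members that were not called. Fosb ranged from -0.079 to 0.0028, Fosl1 from -0.67 to 0.115, Fosl2 from -0.045 to 0.016 and Jund from -0.026 to 0.017. For the read ratios the range was -0.72 to 0.027 for Fosl1 to Fos and -0.155 to 0.173 for Atf3 to Jun, which was -0.00037 with counts divided by 2 and rounded. Jun ranged from -0.21 to -0.19 in these runs. Replicate numbers are shared between genotypes, but same-numbered libraries did not deviate together (r = 0.0157 over genes). With the number as a replicate block, Jun had a log2 fold change of -0.20 (edgeR adjusted p = 6.68e-06), 1 member was lower and 0 higher, and over all genes 818 were higher and 772 lower, against 723 and 688 without the block. Depth limits Fosl1, with 12 to 24 reads, and Atf3, with 70 to 98.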

Other observations

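Genes that axon injury raises together with Atf3 and Jun were called in both directions, with a median log2 fold change of 0.039. DESeq2 called 4 higher and 1 lower, and edgeR 4 of 26 higher and 2 lower. In share called this was 23.1%, beside 6.53% of all genes tested. Cckbr, a receptor for cholecystokinin, had 52.3 ± 1.62 CPM in KO and 41.7 ± 1.95 CPM in WT (SD, n = 2 each), a log2 fold change of 0.33 (edgeR adjusted p = 3.33e-06, SE 0.039). The neuropeptide gene Npy rose by 0.19 and Gap43 by 0.141, while Lifr, a cytokine receptor gene, fell by 0.16. Of 24 genes of the integrated stress response, in which Atf4 and Atf3 act, 3 rose and 2 fell, with a median of -0.024. The share called by edgeR in this list was 20.8%. With DESeq2, 2 rose and 2 fell. Ddit4, an inhibitor of mTOR signalling, fell to 38.8 ± 1.49 CPM in KO, against 46.9 ± 1.51 CPM in WT (log2 fold change -0.28, SE 0.040, edgeR adjusted p = 4.44e-05). The cystine transporter gene Slc7a11 rose by 0.174, Slc7a5 fell by 0.137 and the chaperone gene Hspa5 rose by 0.053.

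Genes other than AP-1 that cell dissociation is known to raise gave 2 of 26 higher and 4 lower, with a median of 0.022. This is 23.1% called, beside 6.53% of all genes tested. Egr1, which is also an activity gene, was higher, and Rhob fell to 232 ± 3.04 CPM in KO, against 259 ± 0.31 CPM in WT. Nfkbia, an inhibitor of NF-kB, fell by 0.44 on the log2 scale (SE 0.055, edgeR adjusted p = 5.08e-06), and Zfp36, which destroys inflammatory messenger RNAs, by 0.58 (SE 0.097, edgeR adjusted p = 0.000278). Summed levels of this list were 5657 and 5626 CPM in KO and 5543 and 5576 CPM in WT.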
